A study of Mus musculus with 35 samples.

Results

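Dorsal brain (dB) and the frontonasal prominence (FNP) adjoin each other in the head of the mouse embryo, and their transcriptomes were compared in 12 of the 35 bulk RNA-seq libraries of the series, 6 from dB and 6 from FNP. The libraries were chosen by their labels, which title the brain samples dNT and give their tissue as dorsal neural tube, while the dissection protocol calls it dorsal brain, the name kept here. Both groups were wild type CD1 embryos at embryonic day 11.5 (E11.5), with no treatment or mutation in either. By the study's methods the brain tissue was taken from forebrain and midbrain. Every library is RNA of 1 tissue pooled over several embryos, so the p-values measure the spread between pools. The study set tissues side by side to ask how far genes of the cilium differ between them, and it also sequenced ventral brain (vB), the maxillary and mandibular prominences (MXP and MNP) and limb. Values are FPKM, fragment counts scaled by transcript length and library size. They were deposited per transcript and are summed here by gene symbol.

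At this stage the dorsal brain is a wall of dividing neural progenitors that give off the first neurons, with signalling centres along its midline such as the roof plate and the cortical hem. The frontonasal prominence is a bud of mesenchyme, much of it derived from the neural crest, under a sheet of surface ectoderm in which the nasal placodes form. The ectoderm and the forebrain both send signals into this mesenchyme, and the prominence later forms the forehead, the nose and the middle of the upper lip. In bulk tissue, a lower level can come from fewer cells of a type or from less RNA in each cell, and these cannot be told apart.

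Between 12397 and 12955 genes were at 1 FPKM or more in each of the 12 libraries. Read coverage per FPKM, the nearest measure of depth, ran from 2.87 to 5.50 in dB and from 2.70 to 3.81 in FNP. With no read counts in the tables, the depth behind a single value is unknown. In both libraries numbered 1, transcripts under 200 bases held 28.6% of all FPKM in dB and 28.9% in FNP, against 0.653 to 7.13% in the other 10 libraries. Lists of dorsal brain, crest mesenchyme and surface epithelium genes, described below, went with the labels of both tissues. Nasal placode genes went both ways, and 10 of 20 tested ventral brain factors were also higher in dB. Among the 34 listed Hox genes, which mark the hindbrain and spinal cord, the highest value in any dB library was 0.429 FPKM (Hoxb5). The sum of these genes was 0.351 to 2.71 FPKM in the dB libraries, against 11.8 FPKM in FNP library 5, with Hoxb5 at 2.04 FPKM, and 0.870 to 1.56 FPKM in the other FNP libraries. Of the 6 FNP libraries, 2 stood apart from the other 4. FNP libraries 4 and 5 had a mean level of listed neural progenitor genes of 3.84 and 3.69 on the log2(FPKM + 1) scale, where the other 4 had 2.58 to 2.84 and the 6 dB libraries 4.96 to 5.74. Nkx2-1, a ventral forebrain factor, had 44.7 and 15.03 FPKM in these 2 libraries and at most 1.119 FPKM in the others of FNP. Their mean level of surface epithelium genes was also the lowest of FNP, at 2.81 and 2.90, against 3.40 to 3.76. Library 4 of dB had the lowest mean level of dorsal regional factors in dB, at 3.62, where the other 5 had 3.99 to 4.34. For the gene lists, counts without FNP libraries 4 and 5 stand beside the full ones where they differ.

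**Figure D1:**
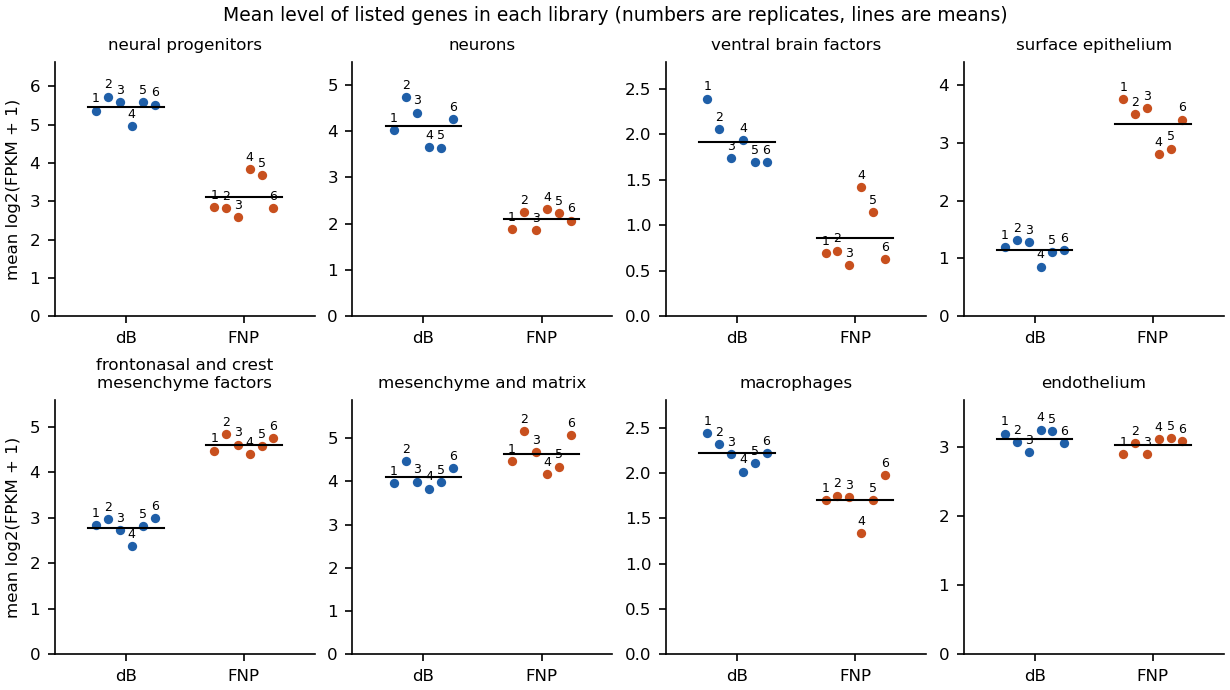
Mean log2(FPKM + 1) of the tested genes of 8 lists in each dB library and each FNP library. Points are libraries with their replicate number and lines are tissue means. FNP libraries 4 and 5 lie above the other FNP libraries for neural progenitors (3.84 and 3.69) and ventral brain factors (1.42 and 1.14), and below them for surface epithelium (2.81 and 2.90).

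Of 13934 genes tested, 767 were higher in dB than in FNP (5.50%) and 573 were lower (4.11%). The test was limma on log2(FPKM + 1), with all 35 libraries in the fit. The spread behind each p and interval is therefore taken within all tissues, with vB, MXP, MNP and limb included. A called gene had a p under 0.05 after Benjamini-Hochberg adjustment and a dB minus FNP difference (log2FC) of at least 1 in size, a fold of 2. For genes of low FPKM the added 1 keeps log2FC below the true ratio. All adjusted p given here come from this fit unless another is named. In all, 1340 genes passed (9.62%). Of these, 705 had every dB library above every FNP library (5.06% of the genes tested) and 515 had every dB library below (3.70%). Called or not, the libraries did not overlap for 1488 genes that were above (10.7%) and 1364 that were below (9.79%). The median change over all genes tested was −0.01. Without FNP libraries 4 and 5, 778 of 13974 genes were higher (5.57%) and 686 lower (4.91%), together 10.5%. Of the genes called in all libraries, 733 higher and 564 lower ones were called again. Within replicates 1 to 3, sequenced in other runs than replicates 4 to 6, 941 genes were higher and 617 lower, and within replicates 4 to 6, 483 and 412. No gene called in all libraries was called in the opposite direction in either set. Of the called genes described here, Ttr, Twist1, Osr1, Dcn, Tbx18, Acta2, Aldh1a2, Col2a1, Runx2, Fgf8, Fgf15, Gnrh1, Rarb, Gli1, Nova2, Rest, Rab34, Tub, Lmo1, Gpc3 and 2 short RNAs did not pass within replicates 4 to 6. Des, Fgf8 and the short RNAs did not pass within replicates 1 to 3. Sox2, Otx2, Osr1, Ttr, Fgf8, Fgf17, Rest, Rarb, Gnrh1 and Col1a1 are described although the rule for named genes did not pick them, and were chosen after their values were seen.

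**Figure D2:**
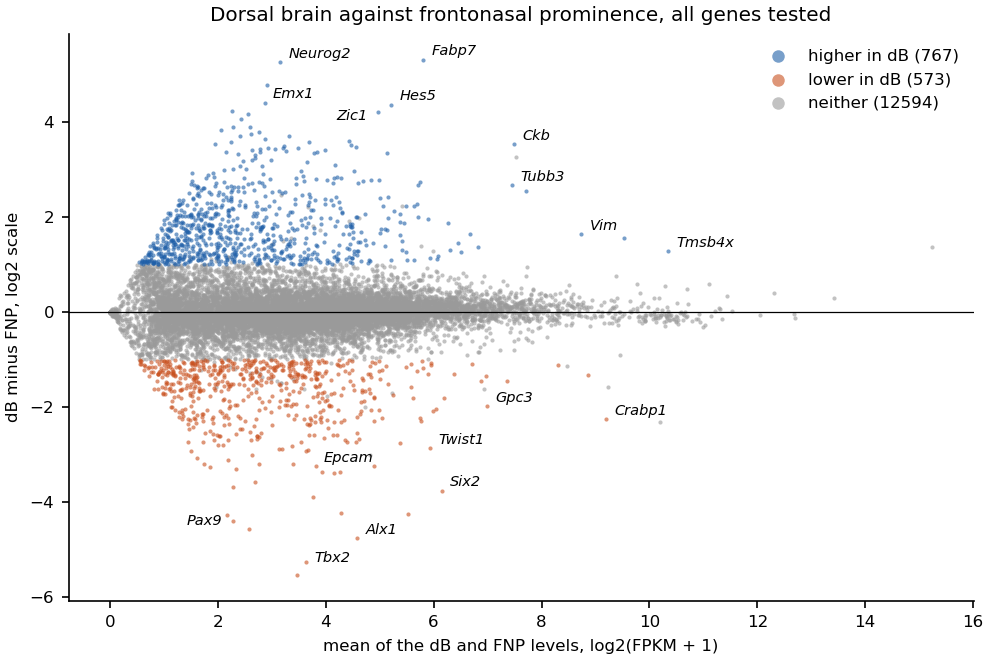
Difference between dB and FNP on the log2(FPKM + 1) scale for the 13934 genes tested, against the mean of the 2 tissues' levels, each taken as log2 of the mean FPKM plus 1. Coloured points are the 767 genes called higher and the 573 called lower in dB, and the points with names lie between 5.31 (Fabp7) and −5.25 (Tbx2).

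The 10 genes that stood furthest above FNP with no overlap of libraries were Fabp7, Neurog2, Dbx1, Emx1, Hes5, Wnt8b, Zic1, Pou3f2, Fam181a and Rfx4. In the following, 3 values for a tissue are the lowest, the median and the highest of its 6 libraries. Fabp7, which binds fatty acids in radial glia (chromosome 10, 57784923 to 57788450, mm10), had 178, 280.2 and 317 in dB, against 1.004, 3.66 and 30.9 FPKM in FNP (log2FC 5.31 ± 0.49 SE, adjusted p = 1.3e-10). Its 2 highest FNP values came from libraries 4 and 5, and the fold change without them was 6.34. Neurog2, a proneural bHLH factor that drives cortical progenitors to become neurons (chromosome 3, 127633145 to 127635631), had 25.5, 59.9 and 75.5 in dB, against 0.103, 0.331 and 0.842 FPKM in FNP (log2FC 5.26 ± 0.24 SE, adjusted p = 1.8e-17). Dbx1, a homeobox factor of intermediate and pallial border progenitors, had 19.6, 38.2 and 52 in dB, against 0.1, 0.344 and 0.895 FPKM in FNP (log2FC 4.78, adjusted p = 2.0e-17). The lowest dB library of each of these genes lay well above the highest FNP library. Pou3f2, a POU factor of neural progenitors, and Rfx4, a winged helix factor of the neural tube, had medians of 22.2 and 17.9 FPKM in dB, against 0.075 and 0.094 FPKM in FNP. Fam181a had 16.5, 20.7 and 26.9 in dB, against 0.141, 0.258 and 0.768 FPKM in FNP, and its standard error of 0.13 was the smallest of the 10 (log2FC 4.05, adjusted p = 3.5e-21).

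The genes furthest below FNP included the transcription factors Tbx2, Tbx3, Alx1, Pax9, Foxf1 and Six2 of facial mesenchyme, which are described with their group. Crym, a crystallin that binds thyroid hormone, had 6.299, 8.33 and 13.2 in dB, against 94.7, 191 and 364 FPKM in FNP (log2FC −4.25, adjusted p = 4.8e-08). Cldn6, a tight junction claudin of embryonic epithelia, had 1.48, 2.47 and 3.75 in dB, against 35.6, 48.6 and 72.4 FPKM in FNP (log2FC −3.89, adjusted p = 1.3e-08).

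**Figure D3:**
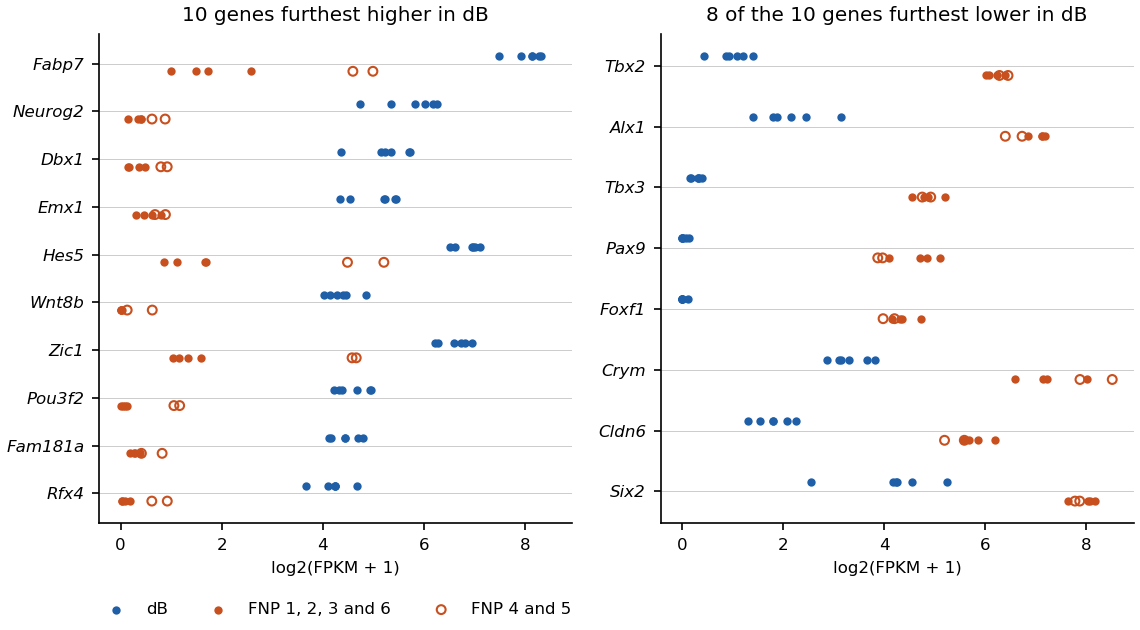
Levels, as log2(FPKM + 1), of the 10 genes furthest higher and 8 of the 10 furthest lower in dB with no overlap between the tissues. Each point is a library, dB above FNP within a gene, with FNP libraries 4 and 5 as open circles. For Fabp7, Hes5 and Zic1 these 2 libraries lie between dB and the other FNP libraries.

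Genes of neural progenitors were higher in dB almost throughout the list: 17 of 22 tested passed and none was lower, with a median change of 2.38 (18 without FNP libraries 4 and 5). Sox2, a factor that keeps progenitors undifferentiated and is also used by placodes, had 73.7, 127 and 139.6 in dB, against 19.9, 26.3 and 45.7 FPKM in FNP (log2FC 1.96, adjusted p = 2.1e-06). Of the 5 that did not pass, Ccnd1, a cyclin of the G1 phase, had 91.6, 126 and 140.4 in dB, against 52.2, 61.6 and 97.3 FPKM in FNP (0.83, 95% interval 0.34 to 1.31), and it passed without FNP libraries 4 and 5 (log2FC 1.05, adjusted p = 0.0019). Pou3f3, close kin of Pou3f2, had 19.3, 70.6 and 77.8 in dB, against 32.05, 43.5 and 50.9 FPKM in FNP, a difference with a 95% interval of −0.40 to 1.09. The surface protein Prom1 differed by 0.49 (adjusted p = 2.9e-04), under the fold required.

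Notch signalling keeps neighbouring progenitors from all becoming neurons at once: a cell that starts to differentiate shows Delta ligands, and the receptor in its neighbours frees an intracellular part that joins the DNA-binding protein Rbpj and switches on Hes genes. In dB, 9 of 24 tested Notch pathway genes were higher and none lower, with a median of 0.57 against −0.01 over all genes (9 higher and 1 lower without FNP libraries 4 and 5). The ligand Dll1 had 18.4, 28.2 and 30.3 in dB, against 0.474, 0.908 and 5.803 FPKM in FNP (log2FC 3.44, adjusted p = 7.0e-11). Its relative Dll3, which acts inside the cell, had 23.6, 28.8 and 33.2 in dB, against 0.859, 1.11 and 4.86 FPKM in FNP (log2FC 3.39, adjusted p = 1.3e-13). Dner, a Delta-like protein of neurons, also rose (log2FC 2.56, adjusted p = 2.5e-10). Hes5, the Notch target of neural progenitors, had 90.3, 124 and 138 in dB, against 0.809, 2.202 and 36.02 FPKM in FNP (log2FC 4.36 ± 0.53 SE, adjusted p = 4.2e-08). All dB libraries lay above all FNP libraries, of which libraries 4 and 5 had 36.02 and 21.5 FPKM and the rest at most 2.22 FPKM. Other parts of the pathway did not pass: Rbpj itself had 25.7, 27.4 and 36.6 in dB, against 27.3, 31.3 and 35.4 FPKM in FNP (−0.10, 95% interval −0.36 to 0.16), Hes1 had 18.6, 30.6 and 37.2 in dB, against 27.6, 32.98 and 38.1 FPKM in FNP (−0.17, 95% interval −0.64 to 0.30) and Hey1 differed by −0.16, 95% interval −0.49 to 0.16.

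Because Hes5 is the target of the pathway that differed most, the 250 bases before its RefSeq start are shown (build GRCm38.p6, chr4:154960673-154960922, plus strand), with exact matches to the Rbpj motif GTGGGAA in capitals, searched on both strands.
Hes5: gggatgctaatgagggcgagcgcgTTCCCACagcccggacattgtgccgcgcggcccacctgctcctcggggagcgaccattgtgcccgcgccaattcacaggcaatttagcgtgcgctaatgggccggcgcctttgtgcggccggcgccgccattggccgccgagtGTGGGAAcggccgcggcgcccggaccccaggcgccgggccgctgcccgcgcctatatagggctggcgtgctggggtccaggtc
The first match, 226 bases before the start, reads TTCCCAC and is on the opposite strand, and the second, 83 bases before the start, reads GTGGGAA. Of all 32851 mouse promoter windows of this length, 5.42% held at least 1 such match and 0.161% held at least 2. Among the 24 tested Notch genes, 19 had a window, and those of Hes5, Hey2 and Lfng held the motif. A match is a description of the letters and does not show that Rbpj is bound there.

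Neurons and the factors that make them were higher in dB. Of 21 tested proneural and neurogenic factors, 15 were higher and none lower (median 1.72), and of 28 tested neuronal genes 23 were higher and none lower (median 2.25; 24 higher and 0 lower without FNP libraries 4 and 5). Eomes, a T-box factor of intermediate progenitors, had 4.45, 18.1 and 23.9 in dB, against 0.045, 0.084 and 0.949 FPKM in FNP (log2FC 3.57 ± 0.31 SE, adjusted p = 5.4e-11). Tbr1, a T-box factor of early cortical neurons, had 3.01, 16.7 and 26.04 in dB, against 0.038, 0.098 and 1.75 FPKM in FNP (log2FC 3.33, adjusted p = 5.9e-08), with dB library 4 the lowest of dB. Olig3, a bHLH factor of dorsal progenitors, was listed at 0 FPKM in 4 of 6 FNP libraries, which reached 0.649 FPKM, and had 7.32, 12.5 and 17.1 FPKM in dB (log2FC 3.54, adjusted p = 3.4e-14). Sox11, which acts in new neurons and also in mesenchyme, had 48.4, 97.4 and 169 in dB, against 94.5, 105 and 144 FPKM in FNP (−0.18, 95% interval −0.68 to 0.32). Among genes of differentiated neurons, Stmn3, a microtubule regulator, had 65.2, 112 and 132 in dB, against 5.71, 8.26 and 19.9 FPKM in FNP (log2FC 3.35 ± 0.36 SE, adjusted p = 5.4e-09). The secretory granule protein Scg3 had 11.6, 19.7 and 24.6 in dB, against 0.618, 0.958 and 3.196 FPKM in FNP (log2FC 3.07, adjusted p = 1.2e-13), and the intermediate filament genes Ina and Nefm rose as well (log2FC 2.82 and 2.81, adjusted p = 4.1e-09 and 2.1e-10). Neuronal transcripts were also present in FNP: Gap43, a growth cone protein, had 43.6, 70.8 and 74.3 in dB, against 28.2, 40.7 and 51.9 FPKM in FNP, with a difference of 0.67 that did not reach 2-fold.

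Factors that mark regions of the dorsal forebrain and midbrain followed the label of dB, with 20 of 28 tested higher and none lower (median 1.79). Emx1, a homeobox factor of the dorsal telencephalon, had 19.2, 36.4 and 42.7 in dB, against 0.242, 0.571 and 0.849 FPKM in FNP (log2FC 4.41 ± 0.25 SE, adjusted p = 3.0e-15). Barhl2, a homeobox factor of the diencephalon and midbrain among other places, had 8.93, 15.1 and 18.1 in dB, against 0, 0.024 and 0.461 FPKM in FNP (log2FC 3.82, adjusted p = 1.6e-15). Lhx9, of similar regions, had 9.96, 17.1 and 27.7 in dB, against 0.115, 0.326 and 1.14 FPKM in FNP (log2FC 3.69, adjusted p = 4.1e-12). Pax6, a paired factor of dorsal progenitors that is also used in the nasal placode and lens, had 30.1, 44.2 and 53.7 in dB, against 2.56, 3.17 and 4.57 FPKM in FNP (log2FC 3.33, adjusted p = 3.4e-16). Irx3, which marks the posterior forebrain and also facial tissue, had 17.9, 25.5 and 32.4 in dB, against 14.2, 21.3 and 37 FPKM in FNP (0.21, 95% interval −0.61 to 1.03).

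The roof plate and the cortical hem are the dorsal midline sources of Wnt and Bmp ligands, and the choroid plexus forms beside them. Of 22 tested genes of these structures, 15 were higher in dB and none lower, with a median of 1.91 (14 higher and 0 lower without FNP libraries 4 and 5). Wnt8b, a ligand of the hem, had 15.3, 19.3 and 28.1 in dB, against 0, 0.0092 and 0.544 FPKM in FNP (log2FC 4.24 ± 0.16 SE, adjusted p = 1.3e-19). The zinc finger factors Zic1 and Zic4 of the dorsal neural tube had medians of 100.4 and 22.2 FPKM in dB, against 1.77 and 0.278 FPKM in FNP. In FNP libraries 4 and 5 Zic1 stood at 24.3 and 22.9 FPKM, and its fold change without them was 5.32, beside 4.21 with them (adjusted p = 1.3e-08). Ttr, the transthyretin of the choroid plexus, ran from 0.395 to 21.3 FPKM over the dB libraries and was listed at 0 in 5 of 6 FNP libraries (log2FC 2.46, adjusted p = 1.1e-05). Rspo3, which strengthens Wnt signals, had 20, 24.8 and 33.7 in dB, against 2.65, 4.201 and 5.13 FPKM in FNP (log2FC 2.46, adjusted p = 1.7e-08), while its relative Rspo2 was at 16.2, 20.3 and 25.03 in dB, against 6.42, 14.5 and 19.7 FPKM in FNP (0.57, 95% interval 0.11 to 1.03).

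Factors of the ventral brain were also measured, and 10 of 20 tested were higher in dB than in FNP and 1 was lower (13 and 1 without FNP libraries 4 and 5). The mean level of this list was 1.92 in dB, 0.86 in FNP and 3.15 in vB on the log2(FPKM + 1) scale. Gsx1, a homeobox factor of the ventral telencephalon and other progenitors, had 4.42, 5.33 and 7.39 in dB, against 0, 0 and 1.35 FPKM in FNP (log2FC 2.40, adjusted p = 2.8e-11). Nkx2-2 reached 4.53 FPKM in dB and 0.08 FPKM in FNP (log2FC 2.07, adjusted p = 4.9e-11). The lower gene was Lhx8, which is used in the ventral telencephalon and in facial mesenchyme (0, 0.377 and 2.14 in dB, against 6.34, 9.93 and 12.4 FPKM in FNP, log2FC −2.80, adjusted p = 2.6e-06). Leaving out the FNP libraries that stood apart changed several calls here, of which 2 are given. Shh had 1.899, 4.66 and 10.2 in dB, against 1.32, 1.903 and 11.97 FPKM in FNP and did not pass (0.72, 95% interval −0.04 to 1.48), but passed without FNP libraries 4 and 5 (1.26, adjusted p = 0.0060) and without library 4 alone (1.08, adjusted p = 0.013). Olig2, a bHLH factor of ventral progenitors, had 4.703, 8.16 and 10.3 in dB, against 1.54, 3.82 and 15.4 FPKM in FNP (0.72, 95% interval −0.14 to 1.58), and passed likewise without both (1.28, adjusted p = 0.019) and without library 4 (1.04, adjusted p = 0.049).

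Some transcripts were present in both dB and FNP and were low in the other 2 prominences. The difference between FNP and the mean of MNP and MXP, which equals the difference between the 2 contrasts with dB, passed for 219 genes that were higher and 103 that were lower in FNP (1.57% and 0.739% of the genes tested, together 2.31%). Without FNP libraries 4 and 5 this test passed for 316 genes, against 322 with them. Sp8, a zinc finger factor of the anterior neural ridge and the nasal ectoderm, had 5.28, 9.15 and 13.6 in dB, against 6.68, 9.29 and 10.04 FPKM in FNP (−0.04, 95% interval −0.42 to 0.35), where MNP and MXP had 0.065 ± 0.075 FPKM and 0.234 ± 0.19 FPKM (SD, n = 6 and 5; FNP against both: log2FC 3.11, adjusted p = 1.8e-15 in limma). Fezf1, a zinc finger factor of the forebrain and olfactory epithelium, had 6.201, 8.06 and 12.1 in dB, against 12.2, 12.7 and 14.8 FPKM in FNP (−0.58, adjusted p = 0.043, under the 2-fold required), and at most 0.452 FPKM in any MNP or MXP library (FNP against both: log2FC 3.74, adjusted p = 9.9e-16). Six3, a homeobox factor of the anterior brain and eye, differed by −0.78, 95% interval −1.41 to −0.16 between dB and FNP and was 3.07 higher in FNP than in MNP and MXP (adjusted p = 2.8e-10); its antisense neighbour Six3os1 may share reads with it, since no source states strand. The ligand Fgf17 of the anterior ridge had 6.28, 10.4 and 14.3 in dB, against 5.85, 7.76 and 18.2 FPKM in FNP (0.05, 95% interval −0.49 to 0.59). Lhx2, a homeobox factor of the forebrain and of placodes, had 139.5 ± 49.9 FPKM in dB and 19.5 ± 6.42 FPKM in FNP (SD, n = 6 each). In limb it ran from 36.7 to 57.1 FPKM, above every FNP library, and in vB from 17.6 to 99.02 FPKM. Otx2, of the same places, had 71.8 ± 18.9 FPKM in dB and 13.1 ± 4.701 FPKM in FNP. Both rose in dB over FNP (log2FC 2.74 and 2.39, adjusted p = 5.1e-08 and 4.4e-09), and in MNP and MXP their means were at most 0.999 and 0.592 FPKM.

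**Figure D4:**
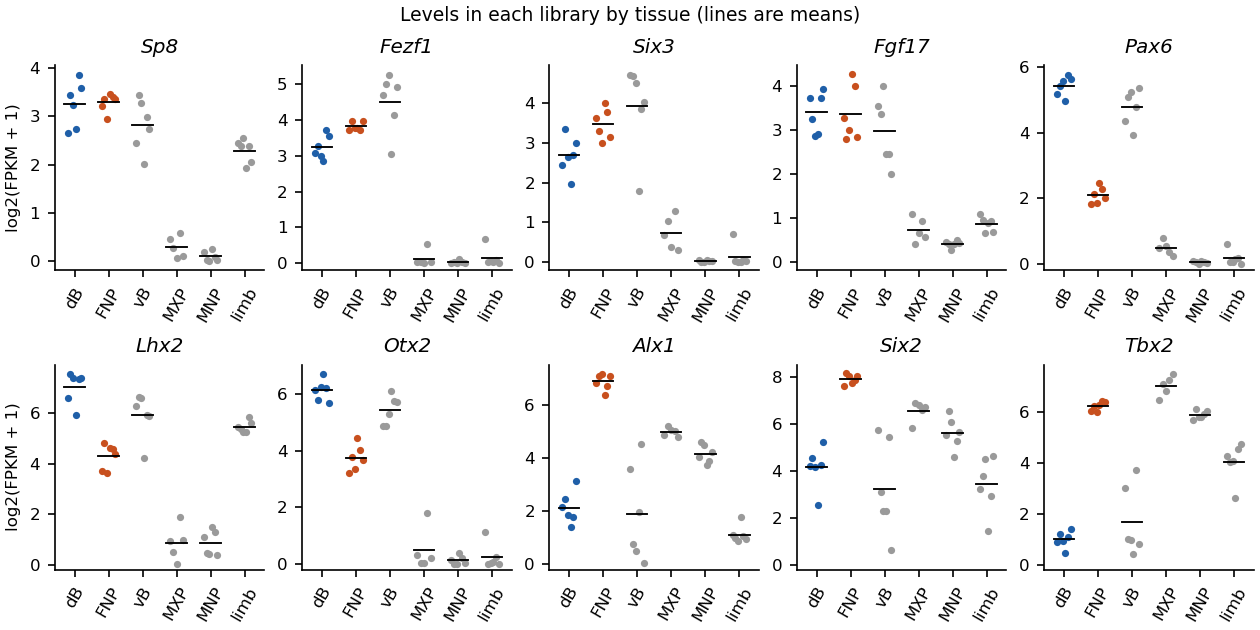
Levels of 10 genes, as log2(FPKM + 1), in each library of dB, FNP and the other 4 tissues. Points are libraries and lines are tissue means. Sp8, Fezf1, Six3 and Fgf17 did not pass between dB and FNP and are low in MXP and MNP. They are also present in vB, and Sp8 in limb. Pax6, Lhx2 and Otx2 have mean levels that are higher in dB and vB than in FNP and lower in MXP and MNP than in FNP, with Lhx2 in limb above FNP. Alx1, Six2 and Tbx2 are high in FNP.

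Many genes of frontonasal and crest mesenchyme, most of them transcription factors, were lower in dB. Of 38 tested in this list, which also holds Crabp1, a binding protein of retinoic acid, and the receptor Epha3, 25 were lower in dB and 1 was higher, with a median of −1.85 (24 and 0 without FNP libraries 4 and 5). The T-box repressor Tbx2, which acts in many growing buds, had 0.357, 1.01 and 1.66 in dB, against 63.9, 75.5 and 86.4 FPKM in FNP (log2FC −5.25, adjusted p = 6.2e-13). Its relative Tbx3 had 0.115, 0.241 and 0.313 in dB, against 22.5, 27.4 and 35.8 FPKM in FNP (log2FC −4.57, adjusted p = 8.9e-16). Alx1, an aristaless-type homeobox factor whose loss causes midface clefts (chromosome 10, 103007847 to 103028777), had 1.66, 3.05 and 7.84 in dB, against 83.2, 126 and 144 FPKM in FNP (log2FC −4.76 ± 0.46 SE, adjusted p = 3.7e-10). It also stood higher in FNP than in MNP and MXP (log2FC 2.31, adjusted p = 9.6e-05), which was not so for Tbx2 (−0.24, adjusted p = 0.93).

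Pax9, a paired factor of facial and pharyngeal tissue, and Foxf1, a forkhead factor of mesenchyme near epithelia that the count of 38 leaves out, were at or near 0 in dB. They had 0.104 and 0.081 FPKM at most in dB, against medians of 20.7 and 18.1 FPKM in FNP (log2FC −4.39 and −4.27, adjusted p = 1.6e-11 and 4.8e-13). Others were lower but far from absent. Six2, a homeobox factor of nasal and other mesenchyme (chromosome 17, 85684268 to 85688254), had 4.87, 17.96 and 36.96 in dB, against 197, 247 and 286 FPKM in FNP (log2FC −3.76 ± 0.60 SE, adjusted p = 6.7e-06), with dB library 4 the lowest. Twist1, a bHLH factor of cranial mesenchyme, had 13.1, 21.8 and 33.2 in dB, against 135, 162 and 188 FPKM in FNP (log2FC −2.85, adjusted p = 3.7e-05), and within replicates 4 to 6 alone its adjusted p was 0.058. Snai1, a zinc finger repressor used by migrating crest, had 4.47, 9.27 and 10.5 in dB, against 33.5, 43.3 and 50.1 FPKM in FNP (log2FC −2.27, adjusted p = 4.3e-05). Foxc1, a forkhead factor of crest and meningeal mesenchyme, had 5.91, 10.98 and 14.6 in dB, against 14.4, 26.9 and 30.7 FPKM in FNP and narrowly missed the threshold (−1.08, adjusted p = 0.055), which it passed with the replicate number as a block (adjusted p = 0.033) and without FNP library 1 (−1.20, adjusted p = 0.043). Sox9, of cartilage precursors and also of neural progenitors, differed by −0.83, 95% interval −1.54 to −0.12, and Shox2, a homeobox factor of facial and limb mesenchyme and of the diencephalon, by −0.27, 95% interval −0.92 to 0.38. The single higher gene was Osr1, a zinc finger factor of several mesenchymes, with 2.16, 3.73 and 4.62 in dB, against 0.448, 1.104 and 2.47 FPKM in FNP (log2FC 1.12, adjusted p = 0.0013), and it did not pass without FNP libraries 4 and 5 (0.93, adjusted p = 0.016).

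Six2 was among the 10 genes with the largest fall in FPKM over all called genes, and the 250 bases before its RefSeq start are shown (GRCm38.p6, chr17:85688255-85688504, minus strand). Capitals mark the 1 match to TAAT and ATTA spaced by 3 bases of any kind, known as a site for pairs of paired-type homeodomains. TAAT reads as ATTA on the other strand, so the motif as searched matches both strands at once, whatever the 3 bases between.
Six2: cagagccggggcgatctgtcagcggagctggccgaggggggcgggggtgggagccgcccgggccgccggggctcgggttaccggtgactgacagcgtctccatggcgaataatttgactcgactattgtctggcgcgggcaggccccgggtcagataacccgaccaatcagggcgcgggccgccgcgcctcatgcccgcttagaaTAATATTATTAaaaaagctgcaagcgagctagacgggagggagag
The match starts 45 bases before the start and reads TAATATTATTA. Of the 32851 promoter windows, 0.463% held this motif, and among the 38 tested genes of the list 19 had a window, of which only that of Six2 held it. Whether a factor binds there was not measured.

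Of 29 tested general genes of mesenchyme and matrix, 8 were lower in dB, 1 was higher and 20 did not pass (median −0.68; 0 higher and 9 lower without FNP libraries 4 and 5). The mean level of the list was 3.83 to 4.47 in dB libraries and 4.16 to 5.16 in FNP libraries on the log2(FPKM + 1) scale, so the ranges overlapped. Pdgfra, the receptor that marks most cranial mesenchyme, had 5.71, 6.32 and 9.28 in dB, against 25.9, 39.2 and 52.99 FPKM in FNP (log2FC −2.31, adjusted p = 7.2e-07). Mfap4, a microfibril protein, fell to 20.2, 28.7 and 43.2 FPKM in dB, against 85.9, 122 and 180 FPKM in FNP (log2FC −2.08, adjusted p = 3.5e-10). Col3a1, a fibrillar collagen, had 73.3, 85.2 and 113 in dB, against 120.5, 137 and 194 FPKM in FNP, and although no library overlapped it did not pass (−0.75, 95% interval −1.90 to 0.41). That interval uses the spread within all tissues. The SD of the list's mean level was 0.909 in vB, 0.242 in dB and 0.401 in FNP. These are values of the list and not of Col3a1, and why Col3a1 did not pass was not tested. Col1a1 had 22.98, 43.6 and 88.2 in dB, against 18.5, 25.3 and 54.8 FPKM in FNP (0.50, 95% interval −0.73 to 1.73). Dcn, a small matrix proteoglycan, was the higher gene, with 3.83, 6.23 and 8.66 in dB, against 0.69, 1.48 and 2.19 FPKM in FNP (log2FC 1.54, adjusted p = 0.014; without FNP libraries 4 and 5 1.34, adjusted p = 0.067).

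Genes of meninges and pericytes went both ways, with 2 of 14 tested higher in dB and 4 lower (2 higher and 3 lower without FNP libraries 4 and 5). Tbx18, a T-box factor of pericytes and other mural cells, had 4.18, 5.19 and 5.76 in dB, against 0.118, 0.2 and 1.121 FPKM in FNP (log2FC 2.16, adjusted p = 2.1e-04). Acta2, the smooth muscle actin of the same cells, had 4.16, 6.65 and 9.57 in dB, against 0.514, 0.856 and 1.48 FPKM in FNP (log2FC 2.02, adjusted p = 0.0031). Aldh1a2, a retinaldehyde dehydrogenase of meninges and of facial mesenchyme, and the receptor Pdgfrb were among the lower genes, with medians of 0.184 and 8.02 FPKM in dB, against 6.96 and 27.03 FPKM in FNP (log2FC −2.58 and −1.71, adjusted p = 2.8e-05 and 7.5e-06). Of 14 early skeletal genes tested, 5 were lower in dB and none higher (0 higher and 6 lower without FNP libraries 4 and 5). Col2a1, the collagen of cartilage, had 30.4, 33.3 and 53.9 in dB, against 54.5, 93.8 and 118 FPKM in FNP (log2FC −1.30, adjusted p = 0.0039). Runx2, the factor that starts bone formation, had 0.185, 0.541 and 1.21 in dB, against 0.95, 4.16 and 12.8 FPKM in FNP (log2FC −1.67, adjusted p = 0.0024), and the tissues overlapped.

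Surface epithelium had the largest share of called members of all 38 lists. Of 27 tested genes, 25 were lower in dB and none was higher, with a median of −2.20, and all 27 lay below 0 (0 higher and 26 lower without FNP libraries 4 and 5). Epcam, an adhesion molecule of embryonic epithelia, had 3.21, 3.53 and 4.06 in dB, against 31.03, 43.1 and 55.2 FPKM in FNP (log2FC −3.23 ± 0.26 SE, adjusted p = 1.1e-11). The claudin Cldn7 had 0.611, 1.13 and 2.02 in dB, against 15.7, 18.6 and 27.01 FPKM in FNP (log2FC −3.19, adjusted p = 1.9e-09). Krt14, a keratin of basal epidermis, had 0.179, 0.394 and 0.784 in dB, against 3.54, 15.2 and 22.6 FPKM in FNP (log2FC −3.10, adjusted p = 5.1e-08), with the lowest FNP values in libraries 4 and 5. Ap1m2, a sorting adaptor of epithelial cells that the study names, had 0.332, 0.514 and 0.637 in dB, against 7.42, 9.62 and 12.9 FPKM in FNP (log2FC −2.81, adjusted p = 4.8e-12). Pkp3, a desmosome plakophilin, had 0.355, 0.794 and 0.898 in dB, against 2.76, 4.25 and 5.82 FPKM in FNP (log2FC −1.55, adjusted p = 5.8e-09).

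Genes of the nasal placode and olfactory epithelium split, with 9 of 21 tested lower in dB and 6 higher. Eya1, a phosphatase and coactivator of placode development that mesenchyme also uses, had 2.19, 2.49 and 2.62 in dB, against 24.1, 30.6 and 36.5 FPKM in FNP (log2FC −3.19, adjusted p = 1.4e-14). Gnrh1, the hormone of neurons that are born in the nasal placode and migrate to the brain, had 0.253, 0.36 and 0.599 in dB, against 0.516, 2.66 and 3.63 FPKM in FNP (log2FC −1.09, adjusted p = 3.8e-05), with FNP libraries 4 and 5 at 0.828 and 0.516 FPKM. It did not reach 2-fold without FNP library 2 (−0.98), 3 (−0.99) or 6 (−0.96). Pax6 and Lhx2, described above, were among the 6 that rose.

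Factors of the jaw and arches were lower in dB for 10 of 19 tested and higher for 1 (2 higher and 10 lower without FNP libraries 4 and 5). Pitx1 of the jaw and oral ectoderm and Tbx22 of the palate were the furthest apart, at −3.19 and −3.06 on the log2 scale (adjusted p = 1.3e-08 and 5.0e-12), and Dlx3, a homeobox factor of ectoderm, fell too (log2FC −2.55, adjusted p = 8.4e-12). Dlx1 and Dlx2, which crest mesenchyme and ventral forebrain neurons share, varied widely between dB libraries, and library 4 was the lowest for both. Dlx1 had 0.749, 5.299 and 11.7 in dB, against 0.909, 1.203 and 6.08 FPKM in FNP, and Dlx2 had 0.995, 9.397 and 19.4 in dB, against 6.13, 8.76 and 16.5 FPKM in FNP. Neither passed (adjusted p = 0.090 and 0.91). Dlx1 passed without dB library 4 (1.40, adjusted p = 0.018), without FNP library 4 (1.31, adjusted p = 0.032) and without FNP libraries 4 and 5 (1.51, adjusted p = 0.021).

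Among the signalling pathways listed, retinoic acid genes that passed were all lower: 11 of 18 tested were lower in dB and none higher (median −1.18). Retinoic acid is made by retinaldehyde dehydrogenases, broken down by Cyp26 enzymes and read by nuclear receptors, and the embryonic face is one of its known sites of action. Of the enzymes that make it, Aldh1a3 of the nasal and eye ectoderm had 0, 0.133 and 0.352 in dB, against 6.503, 9.58 and 15.99 FPKM in FNP (log2FC −3.26, adjusted p = 1.1e-09). Cyp26b1, which breaks it down, had 0.341, 0.737 and 1.199 in dB, against 5.902, 20.7 and 43.3 FPKM in FNP (log2FC −3.59, adjusted p = 1.1e-08). The receptor Rarg had 3.92, 7.88 and 8.73 in dB, against 45.5, 54.6 and 57.6 FPKM in FNP (log2FC −2.73, adjusted p = 5.2e-08), and Rarb, itself a known target, had 3.22, 4.07 and 6.01 in dB, against 8.22, 10.1 and 14.2 FPKM in FNP (log2FC −1.16, adjusted p = 0.0055). Crabp1, which binds retinoic acid in the cytoplasm, was abundant in both, with 125, 225 and 525 in dB, against 526, 1270 and 1920 FPKM in FNP (log2FC −2.24, adjusted p = 0.0024). No dB library reached the lowest FNP library for any of these 5 genes, and for Crabp1 the gap was the narrowest, with 525 FPKM as the highest dB value and 526 FPKM as the lowest FNP value.

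Fgf, Wnt and Bmp genes went in both directions. Of 30 Fgf pathway genes tested, 4 were higher in dB and 10 lower (median −0.46; 5 higher and 10 lower without FNP libraries 4 and 5). Fgfr3, a receptor of neural progenitors, had 18.9, 37.5 and 46.96 in dB, against 1.82, 3.27 and 4.49 FPKM in FNP (log2FC 3.15, adjusted p = 5.8e-10). The ligand Fgf15 had 18.5, 21.9 and 33.4 in dB, against 0.358, 1.18 and 14.3 FPKM in FNP (log2FC 2.75, adjusted p = 1.2e-06), and FNP libraries 4 and 5 held the 2 highest FNP values. Fgf8, the ligand of the anterior ridge and nasal ectoderm, had 3.54, 7.08 and 8.95 in dB, against 8.83, 23.6 and 41.8 FPKM in FNP (log2FC −1.57, adjusted p = 0.0020). Spry4, a feedback inhibitor that Fgf signals induce, had 0.729, 1.14 and 1.45 in dB, against 7.22, 8.79 and 10.5 FPKM in FNP (log2FC −2.22, adjusted p = 1.2e-13).

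Of 47 Wnt pathway genes tested, 11 were higher in dB and 12 lower (9 and 13 without FNP libraries 4 and 5). Wnt5a, a ligand that guides outgrowth of facial and limb mesenchyme, had 5.38, 8.83 and 10.6 in dB, against 40.2, 93.8 and 136 FPKM in FNP (log2FC −3.24, adjusted p = 5.5e-10), where Wnt8b, described above, was the furthest higher. The secreted inhibitor Dkk1 had 1.38, 1.75 and 2.16 in dB, against 9.01, 16.2 and 26.9 FPKM in FNP (log2FC −2.55, adjusted p = 9.2e-09). For the Bmp and Tgf-beta pathway, 2 of 36 tested were higher and 9 lower (2 and 12 without FNP libraries 4 and 5). Bmp4, made by facial ectoderm and mesenchyme, had 4.81, 6.79 and 7.45 in dB, against 16.3, 30.3 and 38.2 FPKM in FNP (log2FC −1.89, adjusted p = 7.9e-07), and the antagonist Nbl1 fell as well (log2FC −2.58, adjusted p = 1.4e-05). Bmp6, a ligand of the dorsal midline, and Id4, an inhibitor of bHLH factors in neural progenitors, were the 2 higher genes (1.76 and 2.67, adjusted p = 1.3e-10 and 1.0e-07).

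The Hedgehog pathway, which vertebrate cells read through the primary cilium, had 1 of 16 tested genes higher in dB and 1 lower, with a median of −0.20 (2 higher and 1 lower without FNP libraries 4 and 5). The other 14 did not pass. Over all genes tested, 5.50% were higher and 4.11% lower, so these counts are near the general share. Gli1, a transcription factor and a standard readout of the pathway, had 6.12, 8.28 and 10.2 in dB, against 17.5, 21.03 and 27.1 FPKM in FNP (log2FC −1.28 ± 0.28 SE, adjusted p = 4.9e-04). Scube2, which helps to release the ligand from cells, had 0.842, 1.42 and 2.56 in dB, against 0.04, 0.069 and 0.139 FPKM in FNP (log2FC 1.20, adjusted p = 3.7e-12). The signal transducer Smo had 34.4, 51.02 and 70.6 in dB, against 58.2, 66.5 and 86.8 FPKM in FNP (−0.37, 95% interval −0.82 to 0.08). Within replicates 4 to 6 alone Gli1 had a log2FC of −1.24 (adjusted p = 0.11).

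**Figure D5:**
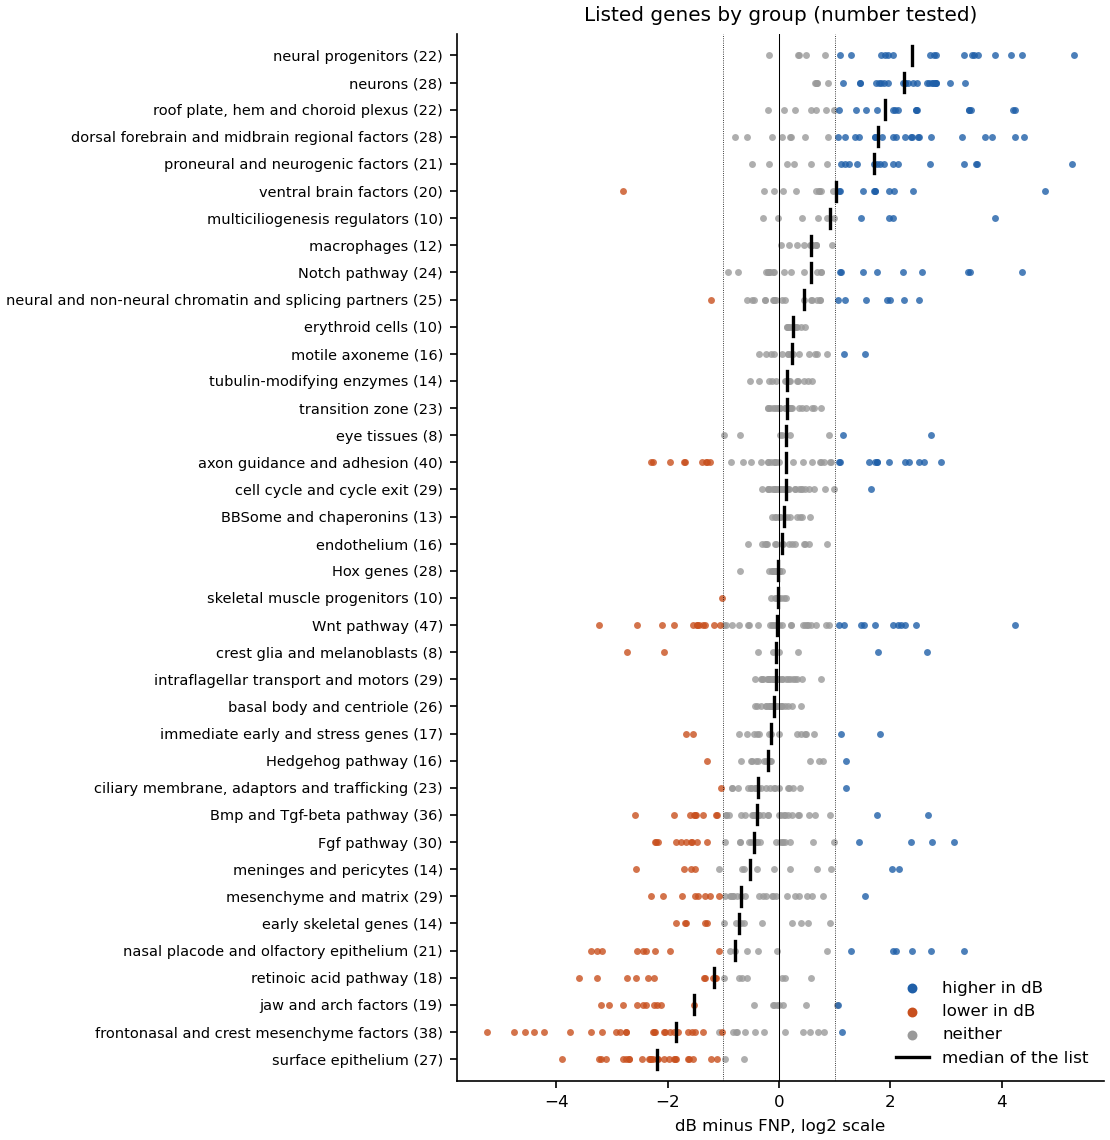
Difference between dB and FNP, on the log2(FPKM + 1) scale, for every tested member of the 38 lists, ordered by the list's median. Points are genes, coloured where called, bars are medians and dotted lines mark a fold of 2 in each direction. Neural progenitors (median 2.38) and surface epithelium (median −2.20) lie at the ends. The lists of intraflagellar transport, the BBSome, the transition zone and the basal body lie near 0. Those of ciliary membrane and of multiciliogenesis have medians of −0.37 and 0.92.

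Axon guidance and adhesion genes were divided, with 12 of 40 tested higher in dB and 9 lower (12 higher and 10 lower without FNP libraries 4 and 5). Cdh8, a cadherin of brain regions, had 7.73, 9.34 and 11.3 in dB, against 0.21, 0.292 and 0.662 FPKM in FNP (log2FC 2.92, adjusted p = 9.3e-14), and the ephrin receptor Epha5 and the guidance receptors Robo3 and Dcc rose with log2FC of 2.61, 2.52 and 2.33 (adjusted p = 2.7e-10, 5.0e-09 and 6.7e-10). Among chromatin and splicing partners that differ between neural and other cells, 7 of 25 tested were higher and 1 lower (8 higher and 1 lower without FNP libraries 4 and 5). Actl6b, the subunit that chromatin remodellers take up in neurons, had 3.605, 7.75 and 12.6 in dB, against 0.133, 0.436 and 0.759 FPKM in FNP (log2FC 2.52, adjusted p = 2.6e-07). The neuronal splicing regulators Nova1, Nova2 and Srrm4 had log2FC of 2.00, 2.25 and 1.95 (adjusted p = 2.6e-11, 9.9e-06 and 4.3e-08). Rest, which represses neuronal genes elsewhere, was the lower gene, with 2.42, 5.33 and 7.09 in dB, against 7.05, 13.4 and 17.99 FPKM in FNP (log2FC −1.23, adjusted p = 7.2e-04). Ptbp1, the splicing repressor that neurons replace by Ptbp2, and Ptbp2 itself differed by −0.57 and 0.60 (adjusted p = 0.0032 and 1.2e-05), both under 2-fold.

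Of 29 tested cell cycle genes, 1 was higher in dB and none lower (median 0.12; 2 higher and 0 lower without FNP libraries 4 and 5). Over all genes tested, 5.50% were higher and 4.11% lower, so these counts are near the general share. The higher gene was Gadd45g, a growth arrest gene that newly born neurons use, with 50.7, 52.3 and 64.4 in dB, against 13.8, 17.1 and 19.8 FPKM in FNP (log2FC 1.66, adjusted p = 1.1e-10). Cdk4, the kinase that partners D-type cyclins, had 523, 608 and 742 in dB, against 503.8, 632 and 668 FPKM in FNP (0.03, 95% interval −0.19 to 0.26). Of 17 tested immediate early and stress genes, another list, 2 were higher in dB and 2 lower, Btg2 and Myc among them. Btg2, an antiproliferative gene of progenitors that are about to form neurons, had 28.8, 39.03 and 45.3 in dB, against 8.58, 9.74 and 12.2 FPKM in FNP (log2FC 1.81, adjusted p = 7.4e-12), and Myc, a driver of growth, had 4.11, 4.74 and 5.57 in dB, against 11.8, 15.9 and 29.8 FPKM in FNP (log2FC −1.66, adjusted p = 1.9e-06).

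Genes of cell types that both tissues contain were also tested, in short lists. Over all genes tested 9.62% passed, so few were to be expected in lists of this length. None of 16 endothelial genes passed in either direction in limma, and 5 had an unadjusted p under 0.05, as 39.0% of all genes tested did. Kdr, the Vegf receptor of vessels, had 7.24, 8.73 and 10.6 in dB, against 4.72, 6.17 and 7.38 FPKM in FNP (0.46, 95% interval 0.04 to 0.89), and the claudin Cldn5, which tightens brain vessels, had 16.1, 19.7 and 23.1 in dB, against 8.75, 9.85 and 13.5 FPKM in FNP (log2FC 0.87, adjusted p = 2.5e-05, under 2-fold). None of 10 erythroid genes passed, and none had an unadjusted p under 0.05. The embryonic globin Hbb-y had 6649, 10780 and 20050 in dB, against 5086, 8988 and 17470 FPKM in FNP (0.29, 95% interval −0.53 to 1.10), a value that near-identical globins may share. None of 12 macrophage genes passed, although 10 had an unadjusted p under 0.05 and all 12 differences were above 0 (median 0.58). Csf1r, the receptor that macrophages depend on, had 2.33, 2.96 and 3.74 in dB, against 1.05, 1.41 and 1.99 FPKM in FNP (0.67, 95% interval 0.35 to 0.98).

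Crest-derived glia and pigment cells were measured through 8 tested genes, of which 2 were higher and 2 lower in dB. Sox10 and Erbb3, of crest glia, were lower (−2.07 and −2.73, adjusted p = 2.3e-06 and 7.0e-11). Ednrb, a receptor that melanoblasts and also radial glia carry, had 10.7, 16.8 and 25.5 in dB, against 0.95, 1.73 and 2.84 FPKM in FNP (log2FC 2.65, adjusted p = 9.5e-12). Dct, an enzyme of melanoblasts that the embryonic forebrain is also known to express, had 2.29, 2.51 and 2.85 in dB, against 0.021, 0.031 and 0.071 FPKM in FNP (log2FC 1.77, adjusted p = 3.8e-09). Of 10 tested genes of skeletal muscle, Des was the only one that passed, with 0.294, 0.445 and 0.499 in dB, against 0.682, 1.699 and 4.03 FPKM in FNP (log2FC −1.03, adjusted p = 0.0078), and it did not pass without FNP library 4 (−0.87, adjusted p = 0.028), without FNP library 5 (−0.93, adjusted p = 0.024) or without both (−0.70, adjusted p = 0.097).

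The study's own question concerned the cilium. In 4 lists of ciliary parts no gene passed, where 9.62% of all genes tested did. Tested were 29 genes of intraflagellar transport and 13 of the BBSome and its chaperonins. A further 23 belonged to the transition zone and 26 to the basal body and centriole. Counting genes with an unadjusted p under 0.05 in limma, the same 4 lists had 10, 4, 8 and 7, where 39.0% of all genes tested had one. The medians of these lists were −0.05, 0.09, 0.14 and −0.09, beside −0.01 over all genes tested. None of 14 tested tubulin-modifying enzymes passed either (median 0.15), and 6 had an unadjusted p under 0.05 in limma. Ift20, which carries cargo from the Golgi, had 24.5, 30.98 and 41.3 in dB, against 32.2, 35.9 and 40.9 FPKM in FNP (−0.18, 95% interval −0.44 to 0.08). Pcm1, the scaffold of centriolar satellites, had 27.5, 34.2 and 40.05 in dB, against 34.5, 36.1 and 41.4 FPKM in FNP (−0.15, 95% interval −0.36 to 0.06), and the centrosomal gene Cep135 differed by −0.14, 95% interval −0.28 to 0.01. Arl13b, a GTPase of the ciliary membrane, and the tubby-like adaptor Tulp3 were below FNP in all 6 dB libraries by less than 2-fold (−0.43 and −0.74, adjusted p = 6.6e-04 and 4.4e-04). The transition zone gene Tmem107 had 9.89, 14.1 and 19.7 in dB, against 5.98, 7.51 and 10.3 FPKM in FNP (0.75, adjusted p = 4.7e-04), also under 2-fold. Of 23 tested genes of ciliary membrane, adaptors and trafficking, 1 was higher and 1 lower, 15 had an unadjusted p under 0.05 and 7 had every dB library below every FNP library (median −0.37; 9.79% of all genes tested lay wholly below). Rab34, a GTPase needed early in cilium formation, had 15, 19.2 and 22.9 in dB, against 37.6, 39.9 and 46.2 FPKM in FNP (log2FC −1.04, adjusted p = 5.2e-08), and it did not reach 2-fold without dB library 2 (−0.98, adjusted p = 3.6e-07). Tub, the founding tubby protein of neurons, had 2.35, 6.08 and 9.53 in dB, against 1.18, 1.59 and 3.42 FPKM in FNP (log2FC 1.21, adjusted p = 0.0033).

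Among the ciliary lists, regulators of multiciliated cells had the largest share of called genes. Of 10 tested regulators of multiciliogenesis, 4 were higher in dB and none lower (median 0.92), where 5.50% of all genes tested were higher. The list holds 15 genes, of which 11 had values. Of 36 measured axonemal genes of motile cilia, only 16 had a mean of 1 FPKM in any tissue and were tested. Of these 16, 2 were higher in dB. Foxj1, the master factor of motile cilia, had 2.83, 5.28 and 7.41 in dB, against 0.379, 0.536 and 0.717 FPKM in FNP (log2FC 1.97 ± 0.16 SE, adjusted p = 1.3e-11). Gm606, which RefSeq calls Gmnc and which starts the multiciliated programme, had 2.27, 4.17 and 4.805 in dB, against 0.061, 0.161 and 0.232 FPKM in FNP (log2FC 2.05, adjusted p = 7.4e-12), and the cyclin Ccno had 2.29, 3.27 and 4.81 in dB, against 0.295, 0.7 and 0.837 FPKM in FNP (log2FC 1.48, adjusted p = 3.4e-10). Foxj1, Gm606 and Ccno met the minimum mean of 1 FPKM in dB but not in FNP. The fourth higher regulator is Rfx4, named above, which the list of neural progenitors also holds. Stk33 and Lrrc23 were the 2 axonemal genes (1.55 and 1.17, adjusted p = 4.3e-13 and 2.0e-10). Foxj1, Gm606 and Ccno were also higher in dB than in vB (log2FC 1.05, 1.52 and 1.21, adjusted p = 5.0e-05, 1.1e-07 and 4.6e-07), a test that is also that of the difference between dB minus FNP and vB minus FNP. Over all genes that test passed for 133 that were higher and 61 that were lower in dB than in vB (0.954% and 0.438%, together 1.39%). It holds no FNP level, so leaving out FNP libraries 4 and 5 could change only its spread and the genes tested. Without them it passed for 196 genes in all, against 194 with them. Within replicates 4 to 6 alone it passed for 24. Of other genes named in the study, Fez1, a kinesin adaptor, had 60.4, 86.2 and 89.2 in dB, against 11.9, 13.7 and 18.1 FPKM in FNP (log2FC 2.41, adjusted p = 1.7e-12), and Lmo1, a LIM-only factor, had 21.5, 33.7 and 40.6 in dB, against 5.97, 6.64 and 28.98 FPKM in FNP (log2FC 1.64, adjusted p = 1.4e-04), with an overlap between the tissues.

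The genes with the largest differences in FPKM above FNP included abundant genes of the cytoskeleton, an enzyme of energy supply and a ubiquitin hydrolase. Tmsb4x, an actin-binding thymosin, had 1456, 2058 and 2496 in dB, against 713, 824 and 928 FPKM in FNP (log2FC 1.27, adjusted p = 1.9e-06). Tuba1a, the tubulin of young neurons, had 883, 1349 and 1491 in dB, against 362, 435 and 467 FPKM in FNP (log2FC 1.56, adjusted p = 1.2e-11), and Tubb3 and Tubb2b had medians of 468 and 540.4 FPKM in dB, against 69.3 and 88.7 FPKM in FNP. Near-identical tubulins can share reads, so the split between them is uncertain. Ckb, the creatine kinase of brain, had 535, 564 and 633 in dB, against 27.3, 45.4 and 97.7 FPKM in FNP (log2FC 3.54, adjusted p = 9.1e-13). Vim, an intermediate filament that both progenitors and mesenchyme use, had 612, 697 and 1116 in dB, against 191, 243 and 295 FPKM in FNP (log2FC 1.64, adjusted p = 1.1e-06), and the neuronal ubiquitin hydrolase Uchl1 had 148, 178 and 200.5 in dB, against 44.6, 53.95 and 79.2 FPKM in FNP (log2FC 1.63, adjusted p = 8.1e-13). Of the largest differences in the other direction, Crabp1, Six2, Crym and Twist1 were described above. They also included Gpc3, a glypican of mesenchyme, with 52.7, 62.2 and 76.6 in dB, against 233, 254 and 265 FPKM in FNP (log2FC −1.97, adjusted p = 1.2e-04), and Igfbp4, which binds insulin-like growth factors, with 78.2, 100.7 and 115 in dB, against 243, 262 and 296 FPKM in FNP (log2FC −1.45, adjusted p = 1.3e-05). The short RNAs Mir3064 and Snord88c also passed the test as lower, but were listed at 0 in every dB library and in 4 of 6 FNP libraries, with 872 and 1349 FPKM for Mir3064 in FNP libraries 2 and 6 and 742 and 228 FPKM for Snord88c in FNP libraries 3 and 6. Mir3064 did not pass without FNP library 2 or 6, and Snord88c did not pass without FNP library 3 or 6 or dB library 3. Their log2FC without these FNP libraries were −2.08 and −1.95 for Mir3064 and −1.57 and −1.91 for Snord88c.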

How the data were processed

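RNA of pooled E11.5 tissue was sequenced as paired-end libraries, and the authors deposited Cufflinks transcript estimates in FPKM on mm10, with a coverage signal per transcript that the authors deposited alongside and that served here only to describe depth. Bowtie2 and DESeq2 are named in the submitters' processing notes. No source used here states strand. Which aligner fed Cufflinks is not given in the sources used here. Each table lists 59120 transcripts. The 59055 that could be read (65 could not) carry 30723 gene symbols.

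Transcripts of 1 symbol were added up. With R 4.3.3, limma 3.58.1 (trend, robust) then modelled log2(FPKM + 1) by tissue in all 35 libraries. The 13934 genes whose mean reached 1 FPKM in any tissue entered. Differences are dB minus FNP. The fit was tested on simulated data. Python 3.11.15 and pandas 2.3.3 served for the tables. The labels call the pools independent biological replicates. Same-numbered dB and FNP libraries deviated together from their tissue means (r = 0.219 to 0.474 over 6 pairs) and share a sequencing run by the table names. Libraries 4 to 6 of both tissues are all of 1 run, so for them the run cannot pair the numbers. The correlations go with a pairing by number, and the fit with the number as a block was an alternative.

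The members of the comparison and the 38 gene lists (878 genes, 777 tested, 16 entries matched through RefSeq synonyms) were chosen with earlier results of these data known. Genes were named by rule: the 10 called genes without overlap that were furthest from 0 each way, the 10 of largest difference in FPKM each way, genes the study names, and per list the 4 with the largest change, all called if 5 or fewer, and the 3 most abundant that were not called. Some genes the rule picked are not reported here. Promoters are from RefSeq, GRCm38.p6. The alternatives were a pseudocount of 0.1, alone and with a mean of at least 0.1 FPKM, no low filter, quantile and median ratio scaling, the 12 libraries alone, blocks, replicates 1 to 3 or 4 to 6, a test against a fold of 1.5 and each library left out. FNP libraries 4 and 5 were left out together after the data were seen.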

Additional observations from a re-analysis of the deposited data

Results flagged for a closer look

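A library that lies far from the other 5 of its tissue was looked for by Dixon's test at the 95% level for the genes described, in 308 groups of 6 libraries, where chance gives about 1 in 20. It found 19 such values, of which 6 were in dB library 4 and 4 in dB library 5. In dB library 4, Pou3f3 (19.3 FPKM), Barhl2 (8.93 FPKM), Dll1 (18.4 FPKM), Rarg (3.92 FPKM) and Nbl1 (2.04 FPKM) lay below the rest of dB, and Vim (1116 FPKM) lay above. In dB library 5, Gap43 (43.6 FPKM) and Fez1 (60.4 FPKM) lay below the rest, and Col2a1 (53.9 FPKM) and Foxf1 (0.081 FPKM, listed at 0 in the others) lay above. In dB library 2, Pitx1 (0.379 FPKM) and Dcc (19.6 FPKM) lay above. In FNP library 4, Wnt8b (0.544 FPKM) and Fam181a (0.768 FPKM) lay above, and in FNP library 5 Olig3 (0.649 FPKM) and Barhl2 (0.461 FPKM) did. In FNP library 2, Sox11 (144 FPKM) and Epha5 (0.856 FPKM) lay above, and in FNP library 6 Ttr (0.053 FPKM) was the only value over 0.

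For 7 genes that did not pass between dB and FNP, the difference between dB and FNP was unlike that between dB and the mean of MNP and MXP, tested in limma as FNP against that mean. FNP was higher by 2.05 for Olig2, 3.74 for Fezf1, 3.11 for Sp8, 3.07 for Six3 and 2.79 for Fgf17 on the log2(FPKM + 1) scale, and Dlx1 and Dlx2 had differences of −2.53 and −1.44.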

How the results depend on the processing

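Counts of called genes depended most on the pseudocount and on the libraries used. With a pseudocount of 0.1 the lower genes numbered 866, and with a minimum mean of 0.1 FPKM as well the counts were 1461 higher and 1119 lower. Replicates 4 to 6 alone gave 483 higher genes. Leaving out 1 library at a time gave 715 to 834 higher and 535 to 623 lower genes, with dB library 4 left out for the highest count of higher genes. The test of FNP against MNP and MXP (322 genes) called 705 with a pseudocount of 0.1, 928 with the lower minimum as well, 170 in replicates 4 to 6, 187 against a fold of 1.5, and 308 to 330 with 1 library left out. The test of dB against vB (194 genes) called 350, 424, 24 and 58 in these 4 settings, and 167 to 202 with 1 library left out. With the replicate number as a block, the counts were 769 and 577, of which 767 and 573 were called without it. Of the genes described, the block changed the call of Foxc1 alone.

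Of 116 called genes described, 93 kept their call in all 24 settings and none changed direction. Direction did change for genes that were not called. In replicates 4 to 6 Pou3f3 had −0.028, Olig2 −0.073 and Fgf17 −0.17, and in replicates 1 to 3 Sox11 had 0.045, Shox2 0.22, Nkx2-1 1.33 and Dlx2 0.58. Nkx2-1 had 0.52 with a pseudocount of 0.1 under both minimums. Without FNP libraries 4 and 5, Nkx2-1 had 1.21, Sp8 0.034 and Dlx2 0.17. Leaving out 1 library at a time gave −0.34 to 0.015 for Sox11, −0.61 to 0.48 for Nkx2-1, −0.16 to 0.083 for Sp8, −0.066 to 0.23 for Fgf17, −0.33 to 0.34 for Dlx2 and −0.022 to 0.082 for Cdk4. The cause was not tested. The tables give no counts, so the error of a single low value is unknown.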
